A study of Mus musculus with 32 samples.

Results

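Tumours that express Grpr were compared with one another by how much of it they express. Grpr encodes the gastrin-releasing peptide receptor, and the 8 tumours labelled ΔEcad female, of 32 primary mouse melanomas, all expressed it. They were chosen for this readout and ordered by their Grpr TPM (a transcript level that accounts for transcript length and sequencing depth). The 4 highest, called Grpr-high, were compared with the 4 lowest, called Grpr-low, on the read counts of all genes. Because Grpr itself selected the classes, its values are a description and it entered no test.

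The ΔEcad genotype is given in the labels as Tyr::NrasQ61K;Cdkn2a-/+;Tyr::NRAS/°;Cdh1F/F, where the methods of the study give a Tyr::Cre transgene in the place of Tyr::NRAS, and the Ecad genotype as Tyr::NrasQ61K;Cdkn2a-/+;°/°;Cdh1F/F. All mice thus shared an NRAS oncogene driven in melanocytes by the tyrosinase promoter, 1 lost copy of the tumour suppressor Cdkn2a and floxed Cdh1, and in ΔEcad mice Cre removes Cdh1, the gene of E-cadherin, in melanocytes alone. Both classes were female ΔEcad tumours and had the same labels apart from their number. The tumours were sequenced whole, so other cells of the tissue keep Cdh1 and contribute RNA, and in bulk tissue fewer cells of a type and less RNA per cell cannot be told apart. No age is given in the labels.

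GRPR is a receptor of the cell surface that binds gastrin-releasing peptide (gene Grp). It couples to the G proteins Gq and G11, which activate phospholipase C beta. That enzyme releases inositol trisphosphate and diacylglycerol, and these raise calcium and activate protein kinase C. The study placed β-catenin and the oestrogen receptor upstream of Grpr in melanoma and YAP1 downstream of the receptor.

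Grpr (ENSMUSG00000031364, chromosome X, 163513904 to 163549677, minus strand, GRCm38) was at 262.9, 206.1, 117.4 and 73.1 TPM in ΔEcad female replicates 3, 8, 4 and 1, the Grpr-high tumours. It was at 31.5, 11.9, 4.66 and 3.52 TPM in replicates 5, 6, 7 and 2, the Grpr-low tumours. Values of the 8 tumours are given below in this falling order. The means were 164.9 ± 85.6 TPM and 12.9 ± 12.9 TPM (SD, n = 4 each), and the raw counts ran from 2327 to 9444 in the high and from 125 to 1310 in the low class. The split fell between replicate 1 at 73.1 TPM and replicate 5 at 31.5 TPM, a ratio of 2.32, while the highest tumour had 74.7 times the level of the lowest. Of the other 24 tumours, 1 lay above the lowest Grpr-low tumour, ΔEcad male 7 at 5.14 TPM.

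**Figure D1:**
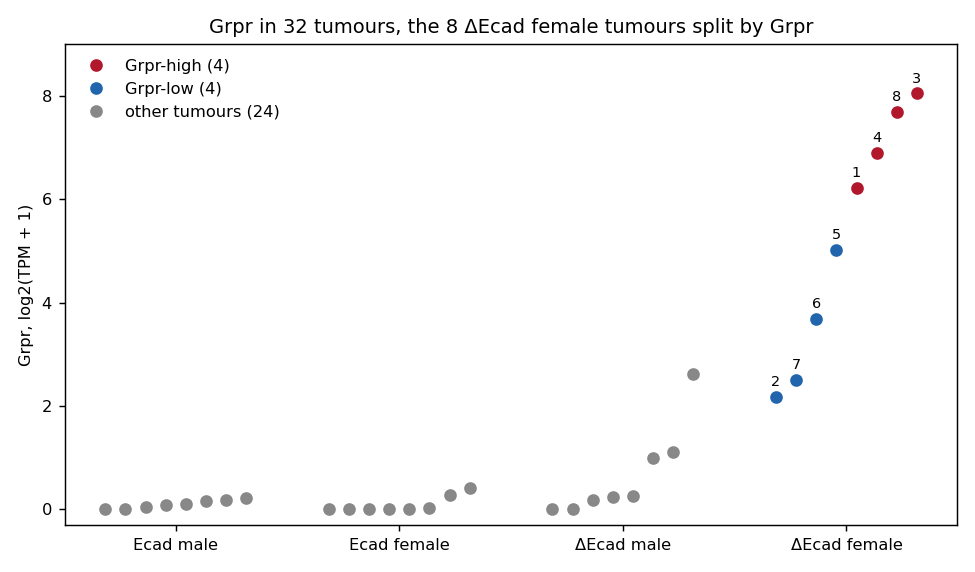
Grpr as log2(TPM + 1) in each of the 32 tumours, 8 points for each label group; numbers mark the ΔEcad female replicates. The Grpr-high tumours run from 73.1 to 262.9 TPM and the Grpr-low tumours from 3.52 to 31.5 TPM, with no wide gap between the classes.

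The 250 bases before the RefSeq start of Grpr, which lies upstream of the GENCODE start given above, are shown because the tumours were ordered by the RNA that starts there. The sequence is that of RefSeq for chrX:163549737-163549986 (GRCm38.p6, minus strand), read 5′ to 3′.
Grpr: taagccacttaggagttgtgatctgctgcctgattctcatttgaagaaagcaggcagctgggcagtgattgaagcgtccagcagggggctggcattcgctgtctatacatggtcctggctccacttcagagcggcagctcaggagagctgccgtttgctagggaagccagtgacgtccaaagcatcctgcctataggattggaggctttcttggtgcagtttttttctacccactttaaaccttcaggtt
The window of 300 bases from 250 before to 50 after the start was searched on both strands for GGAATG (letters bound by TEAD factors, the partners of YAP1), CTTTGA (TCF/LEF factors, the partners of β-catenin), GGTCA (one arm of an oestrogen response element), GGTCANNNTGACC (a whole element) and TGACTCA (AP-1). Of 32851 such mouse windows, 14.7%, 16.0%, 40.5%, 0.07% and 5.2% held these letters, in that order. The Grpr window held none of them, which says only that these letters are not in this window.

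The libraries held 30021348 to 48232383 counts, so Grpr was measured well above 3 counts, the most that a count of 0 allows, in all 8. Replicate 3, the tumour with most Grpr, stood apart in part of its stroma. Its red blood cell score (mean log2 CPM, counts scaled to library size, over 5 marker genes) was -5.59 against 4.93 to 8.59 in the other 7 tumours, with all 5 markers at 0 counts. Its macrophage score was -3.22 against 3.22 to 7.06, with 5 of 8 markers at 0, and its endothelial score -2.48 against 3.74 to 5.95. Its fibroblast score, 6.99, lay within the 4.95 to 8.31 of the others. So did its pericyte and smooth muscle score, 4.60 against 3.21 to 6.01. The keratinocyte score spanned -3.91 to 9.29 in Grpr-high and -0.94 to 9.80 in Grpr-low tumours, and the melanocytic score 8.12 to 11.2 and 8.28 to 11.0, so that neither separated the classes. Even so, the mean keratinocyte score was lower in the Grpr-high class, at 1.95 against 6.08. The same held for hair follicle (-2.46 against 3.07) and skeletal muscle (-0.38 against 6.46). Melanocytic means were 9.71 and 9.93. All 8 libraries had the melanocytic markers that their label calls for. Replicate 1 had 92 counts over 4 genes of chromosome Y, against 0 or 1 in the others. Without replicate 3, 8.6% of all genes had every Grpr-high tumour above every Grpr-low tumour and 2.21% the reverse.

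**Figure D2:**
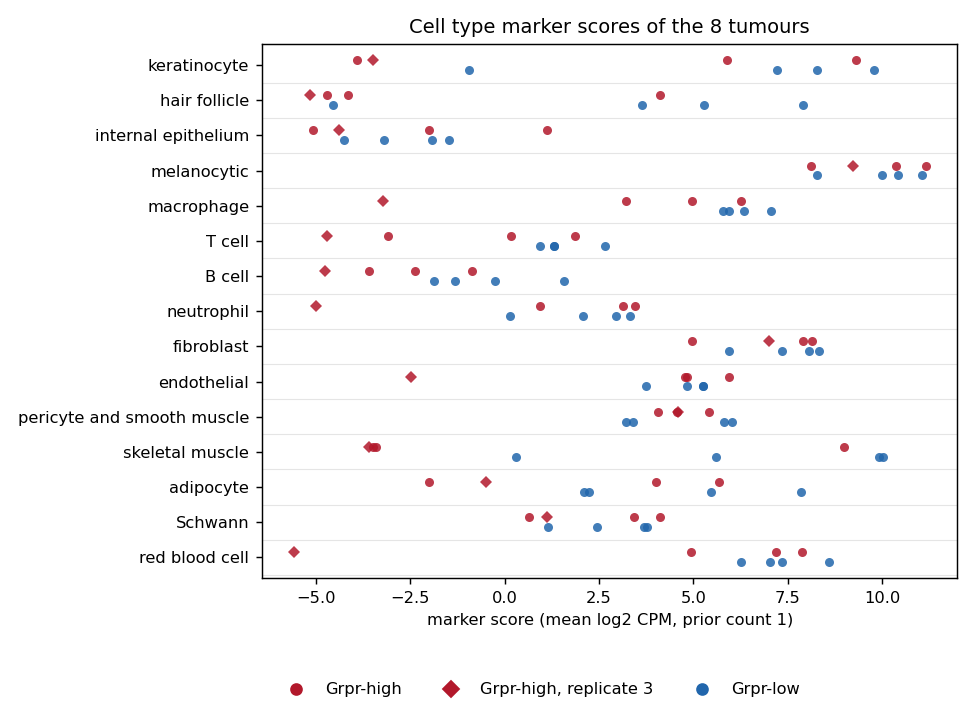
Scores of 15 cell type marker lists (mean log2 CPM with a prior count of 1) in the 8 tumours, Grpr-high in red and Grpr-low in blue; the diamond is replicate 3. Replicate 3 lies far below all others for macrophage (-3.22), endothelial (-2.48) and red blood cell (-5.59) markers, and the keratinocyte, hair follicle and skeletal muscle scores spread widely in both classes.

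The base composition of the measured genes moved with Grpr as well. Across the tested genes, which are not independent replicates, the log2 fold change of Grpr-high against Grpr-low had a Spearman rho of -0.35 with GC content and of 0.23 with transcript length, and -0.36 and 0.18 without replicate 3. In single tumours the rho of gene levels with GC content ran from -0.29 to -0.03 in the Grpr-high and from -0.01 to 0.28 in the Grpr-low class. The part of GC content and length in the gene differences was not tested beyond a fit with offsets for both, whose values are given where they matter. In that fit the median log2 fold change of all genes was 0.23, against -0.04 without offsets.

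The edgeR quasi-likelihood test of the classes called 0 of 16725 genes (0.0%) at the thresholds used, 0.05 for the adjusted p and 1 for the size of the log2 fold change. The smallest adjusted p was 0.175, for Npnt, and 2367 genes had an unadjusted p under 0.05, 1452 of them higher and 915 lower in Grpr-high tumours. With GC and length offsets the split was 1637 higher and 455 lower. DESeq2 called 242 of 18693 genes higher (1.29%) and 220 lower (1.18%). Its calls depended on single tumours: 159 genes were called without replicate 3, 123 of them among the 462, while 35 were called without replicate 7, 162 without replicate 5, 724 without replicate 6 and 2017 without replicate 1. A plainer count was that of genes with every Grpr-high tumour above every Grpr-low tumour in TPM, which held for 1248 genes (7.46%), or the reverse, which held for 291 (1.74%). Fold changes below are therefore given with their standard error (SE) as measured differences, and no gene is called changed by edgeR.

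Among genes with a positive fold change, those with the smallest p were Npnt, Nes, Bod1l, Ppig, Lancl3, Wwtr1, Smchd1, Eif5b, Top1 and Gm11914. All 10 had every Grpr-high tumour above every Grpr-low tumour, also without replicate 3, but they were picked by their p from these same tumours. Npnt, the gene of nephronectin, a matrix protein that binds integrins, was at 51.6, 55.5, 45.5 and 70.8 TPM in the Grpr-high and at 8.59, 12.8, 9.26 and 10.5 TPM in the Grpr-low tumours. Each class kept to a narrow band, with a log2 fold change of 2.19 (SE 0.24, adjusted p 0.175 in edgeR, and from 1.01e-13 by DESeq2 to 0.635 without replicate 7 in other settings) and of 2.27 without replicate 3. In the 8 Ecad females Npnt ran from 6.26 to 139.9 TPM with a median of 66.2 TPM, so the Grpr-low tumours sat at the low end of that range.

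Nes, the gene of nestin, an intermediate filament of neural and neural crest progenitors, was at 25.4, 42.3, 46.1 and 42.9 TPM in the Grpr-high and at 5.98, 5.53, 3.12 and 8.20 TPM in the Grpr-low tumours. The log2 fold change was 2.58 (SE 0.36, adjusted p 0.318 in edgeR). Its median in Ecad females, 14.9 TPM, lay between the classes. Top1, the gene of DNA topoisomerase I, had means of 35.0 and 7.40 TPM, Smchd1, a repressor of the inactive X chromosome, 16.6 and 3.27 TPM, and Eif5b, a factor that joins the ribosomal subunits, 51.0 and 12.7 TPM. Their log2 fold changes were 1.98, 2.11 and 1.78, in a range of 1.55 to 2.77 over the 10 without Lancl3. Lancl3 had 37 to 126 counts in Grpr-high tumours and 0 to 3 in Grpr-low tumours, too few for a fold. The 10 genes were longer and poorer in GC than most, with medians of 5410 bases and 43.8% GC against 3110 bases and 49.8% over the tested genes. Apart from Lancl3, log2 fold changes fell with GC and length offsets for Bod1l, Ppig, Wwtr1, Smchd1, Eif5b and Top1. That of Ppig went from 2.53 to 2.16 and that of Smchd1 from 2.11 to 1.89. Those of Npnt, Nes and Gm11914 rose, for Nes from 2.58 to 2.98. The median of all genes rose from -0.04 to 0.23 in that fit. Npnt, Ppig, Lancl3, Wwtr1, Smchd1 and Eif5b overlap other annotated genes and are uncertain, since nothing says that reads were counted by strand.

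Among genes with a negative fold change, the smallest p belonged to H2-T22, Parp10, Dhx58, H2-DMa, Cryzl2, Psme2, Crlf2, Unc93b1, Ankrd24 and Gm2862. In all 10 every Grpr-high tumour lay below every Grpr-low tumour, with or without replicate 3, and again the choice by p fixes that direction. H2-T22, a non-classical MHC class I gene, was at 39.9, 48.7, 25.6 and 69.5 TPM in the Grpr-high and at 106.0, 152.5, 132.8 and 131.3 TPM in the Grpr-low tumours, a log2 fold change of -1.78 (SE 0.31, adjusted p 0.318 in edgeR). Dhx58, a receptor for viral RNA in the cytoplasm, was at 2.92, 4.93, 3.57 and 5.11 TPM against 10.2, 14.2, 14.4 and 12.6 TPM (log2 fold change -1.90, SE 0.36). In both genes all 4 Grpr-low tumours were well above the highest Grpr-high tumour. Psme2, a subunit of the proteasome activator that interferon induces, ran from 73.7 to 107.1 TPM in Grpr-high and from 133.8 to 216.4 TPM in Grpr-low tumours. Unc93b1, which carries Toll-like receptors to endosomes, ran from 52.7 to 65.4 and from 99.0 to 253.3 TPM. These genes were shorter and richer in GC than most, with medians of 2140 bases and 54.5%. With GC and length offsets their log2 fold changes kept their direction but shrank. That of Psme2 went from -1.23 to -0.51 and that of Ankrd24 from -1.29 to -0.81. The median of all genes moved as well in that fit, from -0.04 to 0.23. H2-T22, Parp10, Dhx58, H2-DMa and Gm2862 overlap other genes and are uncertain, and the reads of H2-T22 may also be shared with related class I genes.

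**Figure D3:**
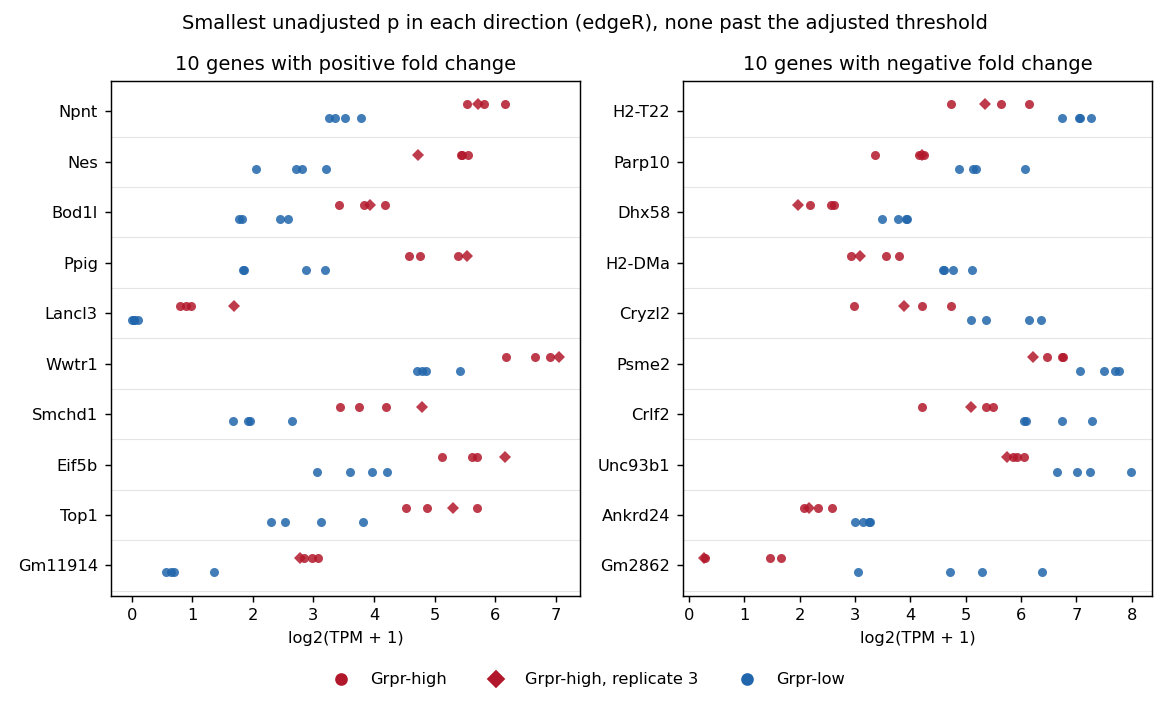
The 10 genes with the smallest unadjusted edgeR p in each direction, as log2(TPM + 1) in each of the 8 tumours, Grpr-high in red (diamond: replicate 3) and Grpr-low in blue. No gene passed the adjusted threshold; the classes do not overlap in any of the 20, and Npnt runs from 45.5 to 70.8 against 8.59 to 12.8 TPM.

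Interferon-stimulated genes were lower in the Grpr-high class as a list. Of 11 genes, all tested, all 11 had a negative fold change, with a median of -2.12 against -0.04 for all genes, and 0 were called by edgeR. In 5 of them, Usp18, Ifit3, Mx1, Bst2 and Irf7, every Grpr-high tumour lay below every Grpr-low tumour, against 1.74% of all genes, and DESeq2 called 4, against 1.18%. Irf7, Mx1 and Bst2 are named after their values were seen. The median was -1.81 without replicate 3. With GC and length offsets it was -1.91, beside 0.23 for all genes in that fit.

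Usp18, a protease that damps interferon signalling, was at 0.73, 2.86, 0.89 and 2.47 TPM in the Grpr-high and at 8.65, 25.6, 9.96 and 6.31 TPM in the Grpr-low tumours (log2 fold change -3.14, SE 0.68, adjusted p 0.318 in edgeR). Ifit3, an antiviral protein, was at 8.66, 16.9, 2.39 and 20.6 TPM against 41.8, 207.8, 61.5 and 38.8 TPM (log2 fold change -3.14, SE 0.78, adjusted p 0.318 in edgeR). Bst2, also called tetherin, which holds budding virus at the cell surface, was at 45.4, 56.0, 120.1 and 89.7 TPM against 279.4, 468.1, 304.9 and 133.1 TPM. Replicate 6 had the highest value of each of these 3 genes, and the Grpr-high tumours stayed below all Grpr-low tumours in each. Mx1 and Irf7 were apart as well, at 0.39 to 1.5 against 2.19 to 6.1 TPM and at 0.52 to 6.94 against 11.2 to 26.0 TPM, and the other 6 members overlapped between the classes. Isg15, a ubiquitin-like modifier, ran from 10.7 to 27.5 TPM in Grpr-high and from 18.7 to 92.8 TPM in Grpr-low tumours. In Ecad females Usp18 had a median of 1.25 TPM (0.22 to 15.6 TPM) and Ifit3 one of 25.6 TPM (2.53 to 120.6 TPM), so both classes fell within that range except Usp18 and Ifit3 in replicate 6 and Ifit3 in replicate 4. Usp18 and Irf7 overlap other genes and are uncertain.

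The promoters of 3 of these genes are shown for the letters that interferon-activated factors bind (GAAANNGAAA on either strand, in capitals with overlapping matches merged), a motif chosen after the values were seen. Each stretch of 60 bases lies within the 250 bases before the annotated start and is RefSeq sequence of GRCm38.p6, namely chr19:34583365-34583424 for Ifit3 (plus strand), chr4:156200856-156200915 for Isg15 (minus strand) and chr8:71537565-71537624 for Bst2 (minus strand).
Ifit3: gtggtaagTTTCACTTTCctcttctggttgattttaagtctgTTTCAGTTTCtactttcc
Isg15: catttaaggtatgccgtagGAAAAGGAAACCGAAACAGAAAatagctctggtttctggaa
Bst2: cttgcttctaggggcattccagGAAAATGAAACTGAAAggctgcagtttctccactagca
The letters were in the windows of 6 of the 8 interferon-stimulated genes that had one in the table, against 3.44% of all windows, and in none of the 4 MHC class II genes that had one, nor in the Grpr window. A match of letters is a description and shows no binding.

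MHC class II genes, whose proteins present peptides to T helper cells on antigen-presenting cells, showed the same order. All 7 were tested, all 7 had a negative fold change, with a median of -2.64 against -0.04 for all genes, and 0 were called by edgeR. In 6 of 7 every Grpr-high tumour lay below every Grpr-low tumour, against 1.74% of all genes, and DESeq2 called 3 lower, against 1.18%. Without replicate 3 the median was -2.31 and the 6 genes were still apart. Cd74, the invariant chain that guides class II molecules, was at 6.48, 105.2, 58.5 and 163.3 TPM in the Grpr-high and at 453.9, 258.3, 483.3 and 832.0 TPM in the Grpr-low tumours, a log2 fold change of -2.84 (SE 0.85, adjusted p 0.318 in edgeR) and of -2.44 without replicate 3. H2-DMa, which loads peptides, was at 7.53, 10.8, 6.64 and 12.8 TPM against 26.2, 23.3, 23.1 and 33.7 TPM, a log2 fold change of -1.75 (SE 0.34, adjusted p 0.318 in edgeR). With GC and length offsets its log2 fold change was -1.09, beside a median of 0.23 for all genes in that fit. The Grpr-low tumours thus held 258.3 TPM of Cd74 or more, and no Grpr-high tumour over 163.3 TPM. The exception in the list was Ciita, the master activator of the class II genes, at 0.03 to 1.55 TPM in Grpr-high and 1.38 to 8.53 TPM in Grpr-low tumours. Cd74, Ciita, H2-Eb1 and H2-DMa overlap other annotated genes and are uncertain.

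Markers of antigen-presenting cells moved in the same direction without separating the classes. The 8 macrophage markers summed to 11.7 to 1294 TPM in Grpr-high and to 1284 to 4233 TPM in Grpr-low tumours, and 0 of the 8 had classes that did not overlap. Of the 4 tested B cell markers 1, Cd79b, lay lower in every Grpr-high tumour, against 1.74% of all genes, at 0 to 0.75 TPM against 1.05 to 5.07 TPM. Of the 8 T cell markers 0 were apart, as of the 8 macrophage markers, against 7.46% of all genes above and 1.74% below. Fold changes were negative for 7 of 8 macrophage markers (median -1.71), 8 of 8 T cell markers (-1.55), 8 of 8 hair follicle markers (-4.26), 7 of 8 skeletal muscle markers (-2.37) and 5 of 6 adipocyte markers (-2.26). Positive medians were those of the fibroblast (1.22), pericyte and smooth muscle (1.12) and internal epithelium (1.28) markers. Without replicate 3 these 3 medians were -0.34, 0.10 and 1.68. The MHC class II score minus the macrophage score (both mean log2 CPM) was -1.19, -1.47 and -1.93 in Grpr-high replicates 8, 4 and 1 and -1.72, -0.48, -0.60 and 0.39 in Grpr-low replicates 5, 6, 7 and 2, so that these overlapped. In replicate 3, where C1qa, C1qb, C1qc, Adgre1 and Cd163 were at 0, it was 1.38. The part of these cells in the difference was not tested.

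**Figure D4:**
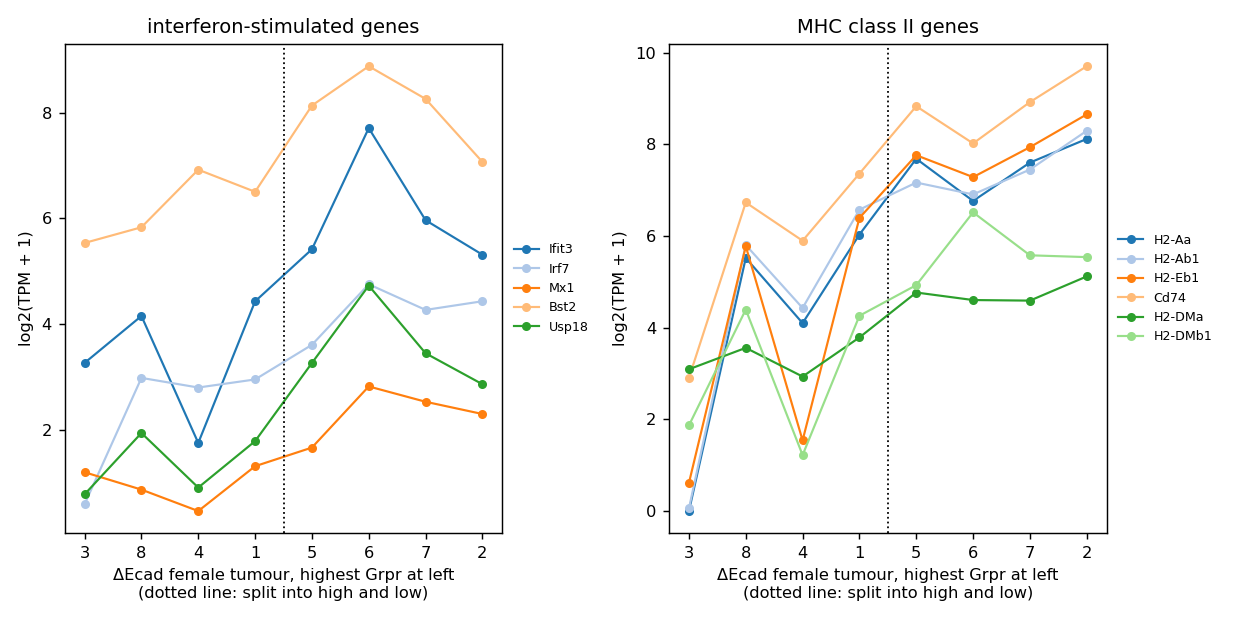
The 5 interferon-stimulated genes (left) and the 6 MHC class II genes (right) whose classes do not overlap, which is what selected them, as log2(TPM + 1) in the 8 tumours, in falling order of Grpr from left to right; the dotted line is the split. The lines stand higher right of the split, with replicate 6 highest for Usp18, Ifit3 and Bst2, while Cd74 runs from 6.48 TPM in replicate 3 to 832.0 TPM in replicate 2.

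The ligands and sister receptors of GRPR did not separate the classes. Grp had 0 to 20 counts in the 8 tumours and was not tested. Nmb, the gene of neuromedin B, which binds GRPR and more strongly the receptor Nmbr, was at 1.42, 13.4, 12.4 and 8.20 TPM in the Grpr-high and at 22.6, 18.6, 6.47 and 9.76 TPM in the Grpr-low tumours, with overlapping classes (log2 fold change -0.92, SE 0.77, adjusted p 0.582 in edgeR). Nmbr was at most 0.11 TPM and Brs3 was listed at 0 in all 8 tumours. Neither could be tested.

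Of 23 genes of Gq and phospholipase C signalling, all tested, 10 had a positive and 13 a negative fold change. Their median was -0.47, or -0.29 without replicate 3. It was 0.008 with GC and length offsets, beside 0.23 for all genes in that fit. With the keratinocyte score as a covariate it was -0.01, the same as for all genes. In 2 of the 23 the Grpr-high tumours were all above, a share near the 7.46% of all genes. These were Plcb4 and Plcb1, of the phospholipase C beta enzymes that Gq activates. Plcb4 was at 15.2, 70.2, 8.53 and 31.2 TPM against 4.70, 4.82, 2.28 and 6.06 TPM, a log2 fold change of 2.48 (SE 0.58, adjusted p 0.318 in edgeR), and DESeq2 called it (adjusted p 0.0104, the lowest of its alternatives, whose highest was 0.635). Plcb1, named after its values were seen, was at 0.87 to 7.25 TPM against 0.17 to 0.55 TPM. Plcb3, higher in TPM than both, overlapped between the classes, at 67.3 to 172.4 and 63.2 to 82.8 TPM. The G proteins themselves did not separate the classes. Gnaq was at 27.6 to 60.2 and 14.7 to 42.0 TPM (log2 fold change 0.56, SE 0.38, adjusted p 0.501 in edgeR), and Gna11 at 69.7 to 125.2 and 67.2 to 250.2 TPM (log2 fold change -0.65, SE 0.46, adjusted p 0.515 in edgeR). Gna14, also named after its values were seen, was the 1 member of the 23 apart in the other direction, against 1.74% of all genes. It was at 0.06 to 3.26 against 3.67 to 9.65 TPM. Arrb2, the gene of a β-arrestin that ends receptor signalling, was at 12.6 to 32.3 TPM against 29.5 to 66.5 TPM (log2 fold change -1.48, SE 0.40, adjusted p 0.318 in edgeR), -0.80 with GC and length offsets, and DESeq2 called it lower (adjusted p 0.0433, the lowest of its alternatives, up to 0.635). Plcb4, Plcb1, Plcb3, Gna14, Gnaq and Arrb2 overlap other genes and are uncertain.

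Immediate early genes, which receptors switch on within minutes, had a median of 0.09 over 17 tested genes, 9 of them positive. In 3 the classes did not overlap, all with Grpr-high above, against 7.46% of all genes, and without replicate 3 Fos joined them, against 8.6%. Nr4a3, an orphan nuclear receptor, was at 6.64, 1.78, 38.5 and 11.5 TPM against 0.28, 0.90, 0.70 and 0.95 TPM, a log2 fold change of 4.31 (SE 1.02, adjusted p 0.318 in edgeR) that kept its direction at 4.59 without replicate 3. Fosl1, a member of AP-1, was at 82.8, 9.41, 13.1 and 27.0 TPM against 3.27, 8.69, 2.73 and 4.66 TPM. Its log2 fold change of 2.50 (SE 0.74, adjusted p 0.318 in edgeR) was 1.62 without replicate 3, which had the highest value. Nr4a2, named after its values were seen, was the third, at 4.63 to 9.43 against 1.54 to 4.58 TPM. Fos, Jun and Egr1 overlapped over the 8 tumours, with log2 fold changes of 0.41, 0.09 and -0.40. The median of the list was 0.67 with GC and length offsets, beside 0.23 for all genes in that fit. Fosl1 overlaps another gene and is uncertain.

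YAP and TEAD genes had a median of 0.05 over 12 tested genes, which was -0.19 without replicate 3. With GC and length offsets it was 0.55, beside 0.23 for all genes in that fit. Only 1 member was apart, a share near the 7.46% of all genes. That was Wwtr1, the gene of TAZ, the paralogue of YAP1, at 131.9, 100.3, 118.6 and 71.3 TPM in the Grpr-high and 26.7, 41.8, 25.1 and 28.0 TPM in the Grpr-low tumours, a log2 fold change of 1.55 (SE 0.29, adjusted p 0.318 in edgeR) and of 1.49 without replicate 3. Yap1 was nearly level, at 66.4, 45.3, 39.2 and 42.7 TPM against 42.1, 49.7, 36.6 and 41.0 TPM (log2 fold change -0.08 on normalised counts, SE 0.23, adjusted p 0.879 in edgeR), with a sign that turned without single tumours. The targets Ccn1, Ccn2 and Ankrd1 overlapped between the classes, and replicate 3 had the highest value of each, with 345.9, 272.7 and 40.3 TPM. Amotl1, another target, was at 38.8 to 83.3 and 48.0 to 169.9 TPM (log2 fold change -0.80, SE 0.41, adjusted p 0.399 in edgeR). In Ecad females Wwtr1 ran from 25.4 to 199.1 TPM with a median of 85.8 TPM, so the Grpr-low tumours stood at the low end of its range.

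The stretch of the Wwtr1 promoter that holds both TEAD and TCF/LEF letters (capitals) is shown because Wwtr1 was the 1 gene of its list with separate classes. It lies at chr3:57576032-57576091 (RefSeq, GRCm38.p6, minus strand), and in its second run of capitals TCF/LEF and TEAD letters overlap by a base.
Wwtr1: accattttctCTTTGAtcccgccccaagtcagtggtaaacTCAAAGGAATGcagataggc

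Of the genes placed upstream, β-catenin targets had 11 of 12 tested members with a positive fold change. Their median was 0.99, or 1.12 without replicate 3. The list score (mean log2 CPM over 14 genes) was 1.262, 2.31, 2.805 and 2.227 in the Grpr-high tumours. It was -0.787, 0.875, 1.283 and 3.029 in the Grpr-low tumours, so the tumour with least Grpr scored highest. Only 1 member, Lef1, had classes that did not overlap, a share near the 7.46% of all genes. Without replicate 3 Sp5 joined it, against 8.6% of all genes. Lef1, a partner of β-catenin, was at 3.69, 15.1, 8.28 and 4.27 TPM against 0.05, 0.40, 0.29 and 3.52 TPM (log2 fold change 2.70, SE 1.14, adjusted p 0.342 in edgeR). Nkd1, a feedback inhibitor of Wnt signalling, reached 231.5 TPM in replicate 4 and was at 11.3 to 23.9 TPM in the other Grpr-high and 2.94 to 11.3 TPM in the Grpr-low tumours (log2 fold change 3.66, SE 1.205, adjusted p 0.322 in edgeR). Without replicate 4 its log2 fold change was 1.19. Apcdd1 overlapped fully, at 2.02 to 48.5 and 0.69 to 46.9 TPM (log2 fold change 0.06, SE 1.19, adjusted p 0.985 in edgeR). Axin2 was at 17.9 to 68.2 and 8.77 to 28.0 TPM. Lef1, Nkd1 and Axin2 overlap other genes and are uncertain.

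The oestrogen receptor gene Esr1 was at 1.98, 5.15, 2.20 and 1.72 TPM in the Grpr-high and at 0.37, 2.39, 2.15 and 1.68 TPM in the Grpr-low tumours, a log2 fold change of 0.44 (SE 0.59, adjusted p 0.735 in edgeR). The classes overlapped, and the tumour with the lowest Grpr in the high class, replicate 1, had about as little Esr1 as the tumour with the lowest Grpr of all. Of 13 listed oestrogen receptors and oestrogen-responsive genes 7 were tested and 0 were apart, against 7.46% of all genes above and 1.74% below. So few genes cannot tell 0 from those shares. The median of the list was -0.22. It was 0.25 with GC and length offsets, beside 0.23 for all genes in that fit. With the keratinocyte score as a covariate it was 0.68, beside -0.01 for all genes. Without replicate 3, 1 member, Greb1, was apart with Grpr-high above, against 8.6% of all genes. Greb1 was at 1.95 to 8.77 and 0.86 to 4.27 TPM (log2 fold change 1.34, SE 0.67, adjusted p 0.396 in edgeR), and Il19 at 0 to 0.76 and 0.11 to 2.92 TPM (log2 fold change -2.24, SE 1.25, adjusted p 0.431 in edgeR).

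Cdh1, the gene removed in these melanocytes, was at 0.17, 78.3, 4.27 and 117.5 TPM in the Grpr-high and at 4.51, 48.2, 45.1 and 143.2 TPM in the Grpr-low tumours. In the 8 Ecad females, which carry no Cre, it ran from 2.16 to 151.2 TPM with a median of 30.6 TPM, and 5 of the 8 ΔEcad tumours lay above that median. The difference in mean log2(TPM + 1), Grpr-high minus Grpr-low, was -1.24 (two-sided exact permutation p 0.571, where 70 splits allow no p below 0.0286). Without replicate 3 the difference was 0.003 (exact permutation p 1.0). The 3 tumours with least Cdh1, replicates 3, 4 and 5, also had the least Epcam, an epithelial adhesion gene (0.07 to 0.1 TPM, against 31.7 to 252.8 TPM in the others), and the lowest keratinocyte scores (-3.91 to -0.94). Cdh11, a mesenchymal cadherin, was at 1.05 to 140.2 TPM against 0.56 to 5.29 TPM, in which replicate 3 stood far above the rest, and its log2 fold change of 3.79 (SE 1.38, adjusted p 0.322 in edgeR) was 1.54 without replicate 3. Of 11 cadherin and catenin genes only Ctnna1, the gene of α-catenin, was apart, a share near the 7.46% of all genes. Ctnna1 was at 379.9 to 511.9 against 161.1 to 352.4 TPM (log2 fold change 0.71, SE 0.32, adjusted p 0.363 in edgeR). Cdh11 and Ctnna1 overlap other genes and are uncertain.

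Melanocyte and pigment genes had a median of 0.03 over 18 tested genes (0.23 without replicate 3). Only 1 was apart, against 7.46% of all genes, joined without replicate 3 by Ednrb, against 8.6%. Mitf, the transcription factor of the melanocyte lineage, was at 73.7, 178.7, 156.8 and 65.7 TPM against 65.3, 46.7, 35.5 and 21.3 TPM, a log2 fold change of 1.22 (SE 0.49, adjusted p 0.335 in edgeR), though replicates 1 and 5 on either side of the split were nearly equal. Rab38, which carries melanosome enzymes, was at 34.8 to 101.0 and 51.0 to 313.8 TPM. Of 11 neural crest-like genes only Nes was apart, a share near the 7.46% of all genes. The median of that list was 0.37, or -0.09 with the keratinocyte score as a covariate. Ngfr, a receptor that marks neural crest-like cells, was at 6.93 to 54.1 and 3.27 to 10.2 TPM (log2 fold change 1.87, SE 0.68, adjusted p 0.322 in edgeR). Invasive and mesenchymal genes had 12 of 14 positive fold changes and a median of 0.97, which was -0.12 without replicate 3. In that list Zeb2 and Tcf4, both transcription factors, were apart, against 7.46% of all genes, and also without replicate 3, against 8.6%. Zeb2 was at 40.2, 45.6, 15.5 and 19.4 TPM against 7.98, 15.0, 7.29 and 4.74 TPM (log2 fold change 1.46, SE 0.42, adjusted p 0.318 in edgeR), and Tcf4 at 7.16 to 33.9 against 5.68 to 6.35 TPM (log2 fold change 1.16, SE 0.39, adjusted p 0.322 in edgeR). With GC and length offsets their log2 fold changes were 1.03 and 0.63, beside a median of 0.23 for all genes in that fit. Mitf, Rab38, Zeb2 and Tcf4 overlap other genes and are uncertain.

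Cell cycle genes had a positive fold change in 21 of 21 tested members, from 0.95 to 2.56, with a median of 1.66 that was 1.04 without replicate 3 and 1.07 with the keratinocyte score as a covariate. Even so, 2 of the 21 had classes that did not overlap, against 7.46% of all genes. Pcna, the sliding clamp of DNA replication, was at 344.0, 323.4, 194.3 and 122.4 TPM against 80.2, 120.1, 73.9 and 79.4 TPM (log2 fold change 1.18, SE 0.32, adjusted p 0.318 in edgeR). Mki67, named after its values were seen and known as the antigen Ki-67, was at 91.6, 109.2, 54.3 and 28.2 TPM against 0.28, 27.2, 4.93 and 13.8 TPM. Tyms, which makes thymidylate, was at 7.39 to 40.1 and 2.76 to 8.99 TPM (log2 fold change 1.66, SE 0.51, adjusted p 0.320 in edgeR). Keratinocyte markers had negative fold changes in 10 of 12 (median -0.99), beside the T cell and skeletal muscle markers given above, and their part was not tested. In most of the list replicate 3 was the highest tumour and replicate 5 the lowest. The list score (mean log2 CPM) of Grpr-high replicate 1, 4.632, lay below those of Grpr-low replicates 6 and 2, at 5.484 and 4.945. MAPK feedback genes were positive in 12 of 12, with a median of 0.49 that was 0.18 with the keratinocyte score as a covariate, and 1, Spry2, was apart, a share near the 7.46% of all genes (62.2 to 124.6 against 31.2 to 60.8 TPM, log2 fold change 0.92, SE 0.37, adjusted p 0.335 in edgeR). Spred2 was at 36.2 to 57.0 and 17.3 to 43.4 TPM. Of hypoxia and glycolysis genes 9 of 14 were positive, with a median of 0.58, and 1 was apart, a share near the 7.46% of all genes. That was Ldha, the gene of lactate dehydrogenase A (878.2 to 1570 against 455.6 to 652.7 TPM, log2 fold change 0.70, SE 0.30, adjusted p 0.345 in edgeR). Vegfa was at 58.3 to 161.8 and 34.3 to 66.3 TPM.

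In 4 further lists 0 members were apart with all 8 tumours, against 7.46% of all genes above and 1.74% below. With 5 to 14 tested genes each, these lists are too short to tell 0 from those shares. Without replicate 3 Mmp13, a collagenase named after its values were seen, was apart, against 8.6% of all genes. Matrix proteases and plasminogen activators had a median of 0.49 over 14 tested genes (0.17 without replicate 3), with Serpine2 (an inhibitor of serine proteases) at a mean of 163.0 and 35.4 TPM. Starved-like genes had one of 0.12 over 5 (0.50 without replicate 3), with Ip6k3 at 0.40 to 23.4 and 9.42 to 48.5 TPM and Pax3 (a transcription factor of the lineage) at 44.6 to 107.4 and 12.1 to 68.8 TPM. Anoikis-resistance genes had one of -0.77 over 8 (-0.41 without replicate 3), with the interferon-induced Rsad2 at 0.55 to 3.55 and 3.25 to 16.7 TPM and Mtpn at 85.1 to 397.4 and 41.5 to 756.9 TPM. Neuroendocrine genes had one of -0.94 over 5, with Scg2, a granin of secretory vesicles, at 1.15 to 15.1 and 0.22 to 2.23 TPM and Ncam1, a neural adhesion molecule, at 10.5 to 60.9 and 12.2 to 155.3 TPM. Mtpn and Ncam1 overlap other genes and are uncertain.

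**Figure D5:**
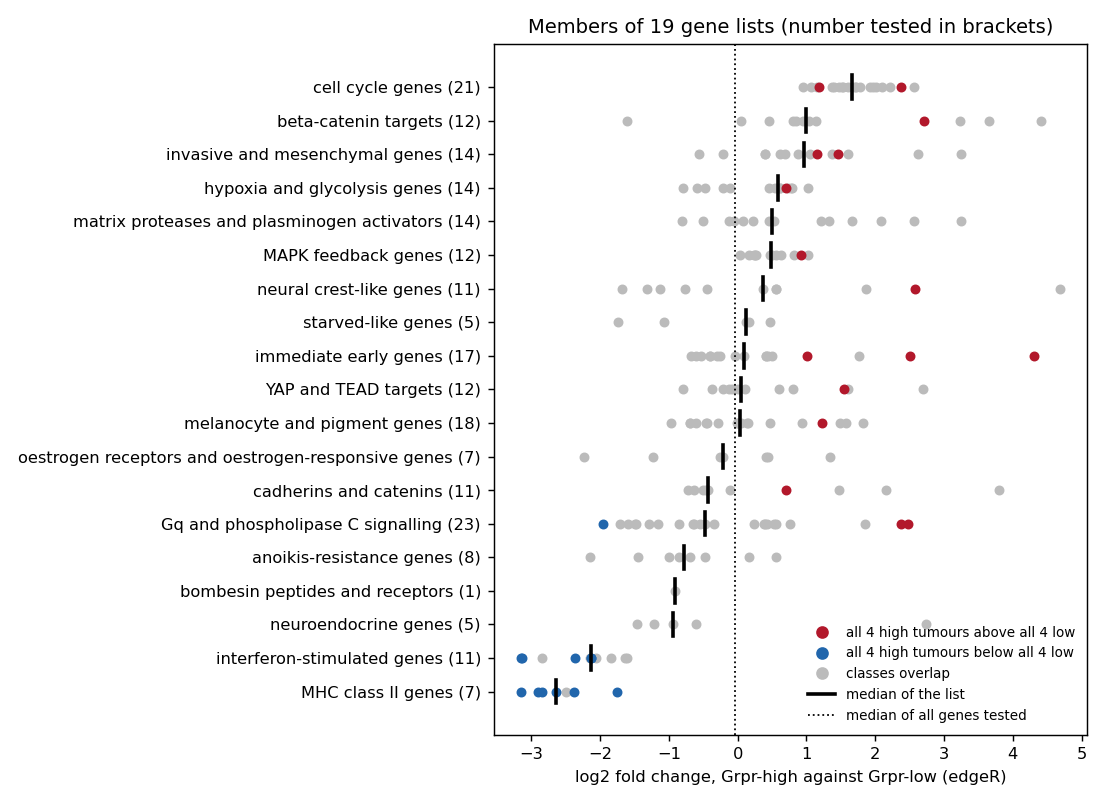
Log2 fold changes (edgeR, Grpr-high against Grpr-low) of the tested members of 19 gene lists; red and blue points have classes that do not overlap, grey points overlap, black bars are list medians and the dotted line is the median of all genes (-0.04). The lists at the ends are cell cycle genes, with a median of 1.66, and MHC class II genes, with one of -2.64, and no gene passed the adjusted threshold.

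The genes whose levels followed Grpr most closely over the 8 tumours, by Pearson r of log2(TPM + 1) among 15101 genes with a mean of 1 TPM or more, were Dip2c (r = 0.995), Ywhah (0.980), 1110004F10Rik (0.973), Sox4 (0.972) and Rpusd2 (0.971). Each had a Spearman rho of 0.976. The points share the libraries and their composition, and with so many genes ranked the values only describe the order. Sox4, a transcription factor of progenitor cells, was at 178.4, 105.8, 61.1 and 51.0 TPM in the Grpr-high and 33.2, 26.4, 7.93 and 11.4 TPM in the Grpr-low tumours, and Dip2c at 36.0, 35.2, 28.6 and 20.3 TPM against 15.7, 9.78, 5.28 and 5.29 TPM. Both fell nearly step by step with Grpr down to replicate 7. The genes most opposed were Car7 (r = -0.970), Psme2 (-0.966), Oas2 (-0.962), Gm12216 (-0.953) and Rnase6 (-0.947). Oas2, an interferon-induced sensor of double-stranded RNA, was at 0.02 to 3.21 TPM in the Grpr-high tumours against 4.56 to 11.9 TPM. Without replicate 3, 3 of the 5 highest and 3 of the 5 lowest remained in those places. Dip2c, 1110004F10Rik, Sox4 and Oas2 overlap other genes and are uncertain.

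The neighbours of Grpr on the X chromosome were read for the same order. Of 44 genes in the table whose lower coordinate lies within 1 Mb of the lower coordinate of Grpr (its 3′ end), 15 were tested. Their median log2 fold change was 0.18, with a range of -1.47 to 1.21. Of the 15, 0 had every Grpr-high tumour above every Grpr-low tumour, against 7.46% of all genes, and 15 genes are too few to tell these shares apart. In 1 of the 15, Car5b, a carbonic anhydrase of mitochondria named after its values were seen, every Grpr-high tumour lay below, against 1.74% of all genes. Car5b was at 3.63, 13.2, 9.52 and 27.1 TPM against 36.5, 30.2, 28.0 and 30.3 TPM (log2 fold change -1.47, SE 0.55, adjusted p 0.327 in edgeR). Xist, the RNA that silences an X chromosome, was at 33.9 to 123.8 and 35.8 to 77.5 TPM (log2 fold change 0.32, SE 0.41, adjusted p 0.722 in edgeR).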

How the data were processed

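Polyadenylated RNA of 32 melanomas was sequenced from stranded libraries. Per the labels and methods, the authors checked reads with FastQC 0.11.5, mapped and counted them with STAR on GRCm38.p5 (mm10), and deposited raw counts per gene and TPM. Batch correction is described without saying whether it touched these tumours. Symbols came from GENCODE M21 (50376 of 50600 genes).

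The 8 ΔEcad females were split by Grpr TPM and their deposited counts tested in edgeR 4.0.16 by quasi-likelihood F-tests (filterByExpr, TMM factors, robust fit), with 1 coefficient for the class and Grpr left out of all counts. The labels do not say whether the tumours came from separate animals. The common dispersion was 0.619. P-values measure the spread between these tumours. On simulated counts for 16726 genes, 61% of genes changed by 4 and 12% of those changed by 2 on the log2 scale were called, and 3 unchanged genes were called. Lists were scored as mean log2 CPM with a prior count of 1. The members, lists and tests were chosen with earlier results of these data known. Named were a fixed set (Grpr, Cdh1, Grp, Nmb, Gnaq, Gna11, Esr1, Apcdd1, Yap1, Mitf, Xist), in each direction the 10 genes with the smallest p and a mean of 1 TPM in the higher class, 2 members per list with the smallest p, and the 5 genes most and least like Grpr. Some genes that this rule names are not reported here. Alternatives used DESeq2 1.42.0 and limma 3.58.1, other size factors, filters, splits and covariates, and each tumour left out. The software ran under R 4.3.3 and Python 3.11.15 (scipy 1.17.1 for permutation tests, matplotlib 3.10.9 for plots). Counting error is covered by the count floors only, since reads carry no molecular identifiers.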

Additional observations from a re-analysis of the deposited data

Results flagged for a closer look

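Of 106 groups of values over the 8 tumours (72 named genes as log2(TPM + 1), 34 list scores as mean log2 CPM), 7 held 1 tumour far from the other 7, where chance gives about 1 in 20. Replicate 3 was that tumour in 5, being low in the macrophage (-3.22), endothelial (-2.48), red blood cell (-5.59), neutrophil (-4.99) and bombesin peptide and receptor (-4.57) scores. The last rests on 4 genes, of which only Nmb was well above 0. Replicate 5, a Grpr-low tumour, was high in Gna11 (7.97 on the log2 scale, against 6.09 to 6.98 in the others), and replicate 4, a Grpr-high tumour, in Nkd1 (7.86, against 1.98 to 4.64).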

How the results depend on the processing

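The edgeR and limma fits called 0 genes in 20 of 21 settings. The exception, with the endothelial score as a covariate, called 1 gene, Cyp2g1, which was lower in the Grpr-high class. DESeq2 called 462, and 35 (without replicate 7) to 2017 (without replicate 1) with each tumour left out; the cause was not tested. Over 20 alternatives 64 of 70 tested named genes kept their direction, and 30 were called, by DESeq2 alone. No paired analysis was possible because both classes lie within 1 labelled group and share no replicate number.

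The 6 genes that reversed in some setting were far from the threshold in all. Apcdd1 was at -0.50 by limma voom, -0.80 with 3 against 3 tumours, -0.39 with Grpr as a continuous covariate, -0.15 with the endothelial score, -0.14 with GC and length offsets and -0.39 to 0.79 with each tumour left out. Cdh1 was at 0.40 with the keratinocyte score and at -1.51 to 0.26 with each tumour left out. Mtpn was at 0.37 with 3 against 3, 0.27 with Grpr continuous and -1.63 to 0.22 with each tumour left out, Yap1 at 0.009 with Grpr continuous and -0.21 to 0.08 with each tumour left out, Gna11 at 0.031 with 3 against 3 and Xist at -0.07 with GC and length offsets. The Cdh1 level difference ran from -2.22 to 0.003 with each tumour left out.

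Of 87 alternatives for list medians and marker scores 4 moved by over 1 SD within the classes. These included the medians of invasive and mesenchymal genes (-0.12 without replicate 3) and neuroendocrine genes (-0.20 with the keratinocyte score). The others were those of immediate early genes (0.67) and matrix proteases and plasminogen activators (1.06), both with GC and length offsets. In that fit the median of all genes was 0.23. The offsets, the endothelial and fibroblast covariates and the DESeq2 fits without single tumours were chosen after seeing the data. With 4 tumours a class, differences of 2 on the log2 scale were mostly below what edgeR could call.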
